A study of Mus musculus with 12 samples.

Results

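Gene expression in cells labelled long-term haematopoietic stem cells (LT-HSCs) was compared between mice labelled Trim47-/- and wild-type mice. All cells compared were taken 10 days after 5-fluorouracil (5-FU). The comparison rests on 6 of the 12 RNA sequencing libraries of the study, 3 labelled Trim47-/- and 3 wild type, chosen by their labels alone, and on all 16319 of 28999 listed genes that passed a filter on low counts. The other 6 libraries, 3 of each genotype from mice given no 5-FU, served to share the estimate of the spread and to test whether the genotype difference was the same without the drug. The labels give bone marrow as the tissue and LT-HSCs as the cell type. The sources used here do not give the drug's dose, the sort gate, the strain and age of the mice, the deleted part of Trim47 or the number of animals behind a library. Because no label names separate animals, the p-values refer to the spread between libraries of a group, which may be technical in origin.

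LT-HSCs are rare, mostly resting marrow cells that renew themselves and supply every blood lineage. 5-FU is a pyrimidine analogue that kills cycling cells, so it strips the marrow of progenitors and drives surviving stem cells into division before they return to rest. Trim47 encodes a protein of the tripartite-motif family, whose RING domain is typical of E3 ubiquitin ligases, and members of that family act in innate immune signalling as well as in other pathways.

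Trim47 RNA was lower in every library labelled Trim47-/- but was not absent. Trim47 (ENSMUSG00000020773) stood at 38.1, 33.3 and 34.7 CPM in the wild-type libraries and 10.1, 12.2 and 11.6 CPM in those of Trim47-/-, where CPM are a gene's counts scaled to the size of the library. All 3 Trim47-/- libraries lay below all 3 wild-type libraries, and the log2 difference was -1.64 (SE 0.121, adjusted p = 5.50e-07) in edgeR's quasi-likelihood test. In mice given no 5-FU the libraries of Trim47 stood at 24.6, 23.8 and 24.7 CPM in wild type and 23.7, 18.9 and 16.6 CPM under the label Trim47-/-, a difference of -0.31 (adjusted p = 0.0632) that did not pass. Counts are per gene, so they do not show whether the remaining reads came from the deleted part. Trim65, the neighbouring tripartite-motif gene, which overlaps Trim47 on the same strand of chromosome 11 (GRCm38, 116121846 to 116131128 against 116105752 to 116127210), stood at 22.1, 25.3 and 23.3 CPM in the wild-type libraries and 15.3, 13.5 and 17.6 CPM in those of Trim47-/-. The groups of Trim65 did not overlap either, with a log2 difference of -0.61 (SE 0.0982, adjusted p = 2.89e-04), and reads could have been divided between the 2 genes. Of 21 measured genes around the locus, Trim47 and Trim65 included, 5 were higher and 9 lower, with a median log2 difference of 0.00. Over all genes tested, 27.2% were higher and 27.6% lower. Unc13d, needed for granule release, was lower (-0.63) and Mrpl38, a mitochondrial ribosomal protein, was higher (0.49).

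The libraries of a group were close to each other and the groups were far apart. Total counts lay between 15111811 and 15151589 for wild type and between 13919649 and 13953510 for Trim47-/-. Between libraries of a group, 8.29% to 9.22% of genes differed by more than the 1% limit of counting noise, and between the groups 47.9% to 49.0% did. The use of 148 immunoglobulin V segments, which varies between animals, correlated across segments at r = 0.955 to 0.981 within the groups and at 0.526 to 0.566 between them (segments are not independent replicates). Mitochondrial messenger RNA made up 2.46% to 2.52% of counts in wild type and 2.60% to 2.66% in Trim47-/-, and mitochondrial ribosomal RNA 0.214% to 0.216% and 0.247% to 0.249%. The part that these differences between the groups have in the results below was not tested.

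After 5-FU, the majority of the measured genes differed between the genotypes, most by little. A gene was called at a Benjamini-Hochberg adjusted p under 0.05. Of 16319 genes, 8933 (54.7%) were called, 4434 (27.2%) higher and 4499 (27.6%) lower in Trim47-/-. These shares are the background against which each gene group is read, and a value in parentheses after a gene is its log2 difference. Of the called genes, 5632 differed by less than 1.5-fold, while 551 (3.38% of all genes) were at least 2-fold higher and 883 (5.41%) at least 2-fold lower. The genes called at least 2-fold were mostly low, with a median level of 2.10 CPM among those higher and 2.09 CPM among those lower, against 19.3 CPM over all genes. The 2 groups of libraries did not overlap for 10001 genes (61.3%). The median of all log2 differences was 0.00 and the median size was 0.31. Genes with longer transcripts were lower more often: 12.3% of the fifth of genes with the shortest transcripts were called lower and 38.1% of the fifth with the longest.

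The 12 largest rises in Trim47-/- included Acod1, Nlrp3, Tlr2 and Cd83, genes known from activated myeloid cells. Genes were ranked here where the 6 libraries averaged 10 CPM or more and the groups were separate. The largest rise was in Acod1, whose enzyme makes itaconate in activated macrophages. It stood at 2.97, 2.47 and 2.09 CPM in the wild-type libraries and 20.9, 17.9 and 18.8 CPM in those of Trim47-/-. Every Trim47-/- library was far above every wild-type library, with a log2 difference of 2.93 (SE 0.122, adjusted p = 5.69e-09). Nlrp3, the sensor of an inflammasome that activates interleukin-1β, stood at 21.9, 24.5 and 20.3 CPM in the wild-type libraries and 129.9, 103 and 131 CPM in those of Trim47-/-. The lowest Trim47-/- library stood well above the highest wild-type library, and the log2 difference was 2.45 (SE 0.0995, adjusted p = 4.60e-09). Ahnak, which encodes a giant scaffold protein, stood at 237, 231 and 232 CPM in the wild-type libraries and 1008, 1027 and 1021 CPM in those of Trim47-/-, log2 2.13 (SE 0.0172, adjusted p = 4.01e-15). Its libraries nearly coincided within each group.

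Other genes among the 12 largest rises were Lgals3, galectin-3, at 6.82, 7.02 and 6.01 CPM against 32.6, 34.7 and 39.5 CPM (wild type first, log2 2.43, SE 0.148), and Noct, the NADPH phosphatase nocturnin, at 14.2, 17.2 and 15.5 CPM against 70.0, 69.3 and 73.7 CPM (log2 2.18, SE 0.116). Tlr2, a receptor for bacterial lipoproteins, went from 19.4 ± 0.856 to 78.5 ± 2.85 CPM (SD, n = 3 each), with a log2 difference of 2.02, SE 0.0467. All 3 were separated between the groups. The metalloprotease Mmp19 (2.24, SE 0.194), the schlafen family gene Slfn2 (1.95, SE 0.0904), the surface protein Cd83 (1.91, SE 0.0387) and the galactosyltransferase B4galt5 (1.90, SE 0.0488) completed the set together with Amd1 and Fam107b. Amd1, a key enzyme of polyamine synthesis that has a near-identical copy, stood at 7.26, 7.65 and 8.54 CPM in the wild-type libraries and 18.1, 74.8 and 75.0 CPM in those of Trim47-/-. Fam107b stood at 109, 139 and 119 CPM in the wild-type libraries and 649, 149 and 788 CPM in those of Trim47-/-. For Amd1 and Fam107b 1 Trim47-/- library lay much nearer to the wild-type libraries than the other two, with log2 differences of 2.84 (SE 0.888, adjusted p = 0.0181) and 2.11 (SE 0.472, adjusted p = 0.00266). The call of Amd1 was lost when wild-type library 1 or 2 or Trim47-/- library 3 was left out (adjusted p = 0.0548, 0.0529 and 0.0503).

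The 12 largest falls included the immediate early genes Fos, Dusp1 and Zfp36, the stem cell gene Fgd5 and Gimap8. Gimap8, of a family of GTPases of immune associated proteins, stood at 16.7, 17.3 and 19.0 CPM in the wild-type libraries and 3.32, 3.77 and 4.21 CPM in those of Trim47-/-, log2 -2.23 (SE 0.0828, adjusted p = 2.51e-09). Fos, a subunit of the AP-1 transcription factor, stood at 2989, 3000 and 3006 CPM in the wild-type libraries and 771, 773 and 759 CPM in those of Trim47-/-. The libraries of a group nearly coincided, and the log2 difference was -1.97 (SE 0.0137, adjusted p = 1.52e-15). Dusp1, a phosphatase that switches off MAP kinases, stood at 918, 927 and 946 CPM in the wild-type libraries and 235, 236 and 233 CPM in those of Trim47-/-, log2 -1.99 (SE 0.0224, adjusted p = 1.13e-13), again with no overlap. Gdf15, a secreted stress factor of the TGF-beta family, stood at 35.0, 38.0 and 38.8 CPM in the wild-type libraries and 8.74, 8.18 and 10.2 CPM in those of Trim47-/-, log2 -2.04 (SE 0.0748, adjusted p = 2.24e-09). Further falls were those of Zfp36 (-1.75, SE 0.0102), whose protein promotes the decay of inflammatory messenger RNAs, the melanocortin receptor Mc5r (-1.73, SE 0.115), Zc3h6 (-1.71, SE 0.120), Mamdc2 (-1.68, SE 0.105), Trim47 itself, the RNA helicase Ddx4 (-1.62, SE 0.0930) and Fgd5 (-1.62, SE 0.0874), a marker of LT-HSCs. Zbtb4 stood at 19.3, 19.0 and 18.9 CPM in the wild-type libraries and 0.939, 7.17 and 8.85 CPM in those of Trim47-/-, so that 1 Trim47-/- library lay far below the others with a log2 difference of -1.75 (SE 0.419, adjusted p = 0.00411).

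**Figure D1:**
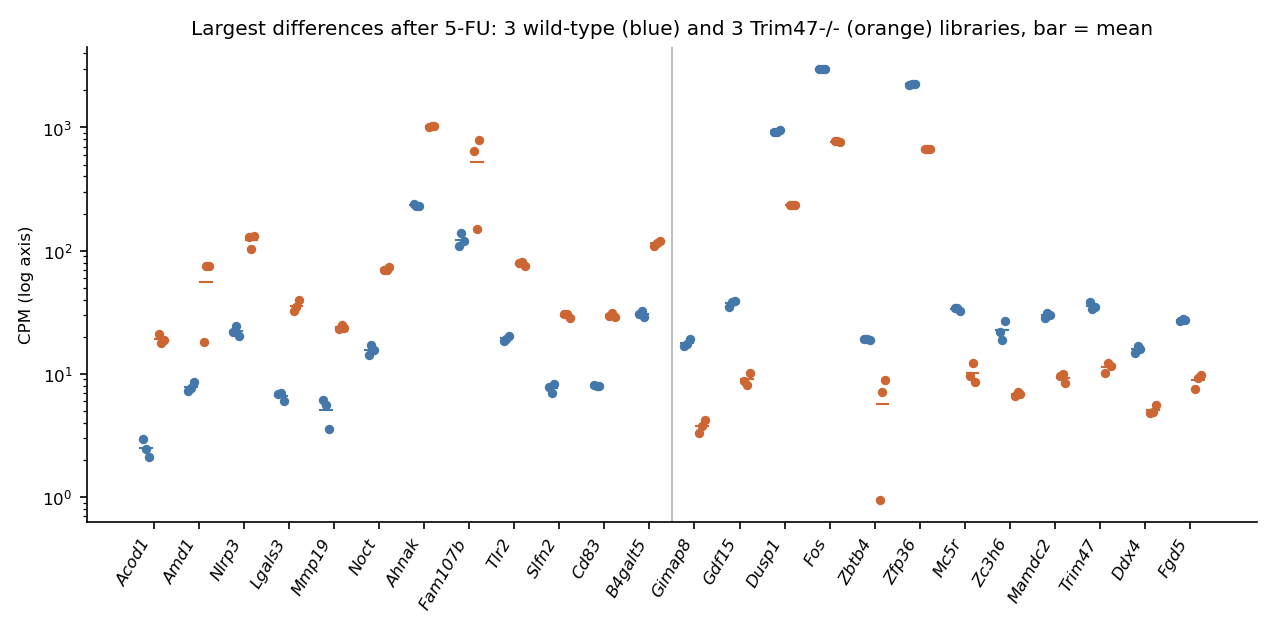
Levels of the 12 genes with the largest rises (left of the line) and the 12 with the largest falls (right) among genes averaging 10 CPM or more whose groups did not overlap. Each point is 1 library, blue for wild type and orange for Trim47-/-, the short bar is the mean of 3 and the CPM axis is logarithmic. The points of Fos, Dusp1, Zfp36 and Ahnak nearly coincide within a group, while Amd1, Fam107b and Zbtb4 have 1 Trim47-/- library apart from the other two.

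Transcription factors that maintain haematopoietic stem cells were mostly lower in the Trim47-/- libraries after 5-FU. Of 30 measured factors, 25 were lower, 2 higher and 3 did not pass, against 27.6% and 27.2% of all genes, and 8 fell at least 2-fold. Their median log2 difference was -0.68, against 0.00 over all genes. Bcl11a, a repressor known for silencing fetal globin and for its role in stem and lymphoid cells, stood at 163, 159.9 and 160.2 CPM in the wild-type libraries and 72.7, 71.5 and 68.9 CPM in those of Trim47-/-, log2 -1.18 (SE 0.0320, adjusted p = 1.86e-10). Tal1, a master factor of blood formation, stood at 109, 112 and 110.4 CPM in the wild-type libraries and 56.0, 54.5 and 52.9 CPM in those of Trim47-/-, log2 -1.02 (SE 0.0402, adjusted p = 3.70e-09). In both genes every Trim47-/- library was lower than every wild-type library. Mecom, whose EVI1 protein keeps stem cells at rest, stood at 74.1, 79.0 and 78.6 CPM in the wild-type libraries and 42.5, 44.3 and 49.3 CPM in those of Trim47-/-, with no overlap between the groups. Nkx2-3 (-1.15), Eya2 (-1.14), Mycn (-0.98) and Myct1 (-0.74) were also lower. Hlf, among the most specific factors of mouse stem cells, stood at 165, 171 and 278 CPM in the wild-type libraries and 63.4, 55.6 and 105 CPM in those of Trim47-/-, with 1 library of each group above the other two and no overlap. Lmo2 and Runx1, needed to establish blood cells, did not pass: the log2 difference of Lmo2 was -0.05, SE 0.130 and that of Runx1 0.03, SE 0.0976. Foxo1 (0.41) and Zfx (0.46) were the 2 factors that rose.

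**Figure D2:**
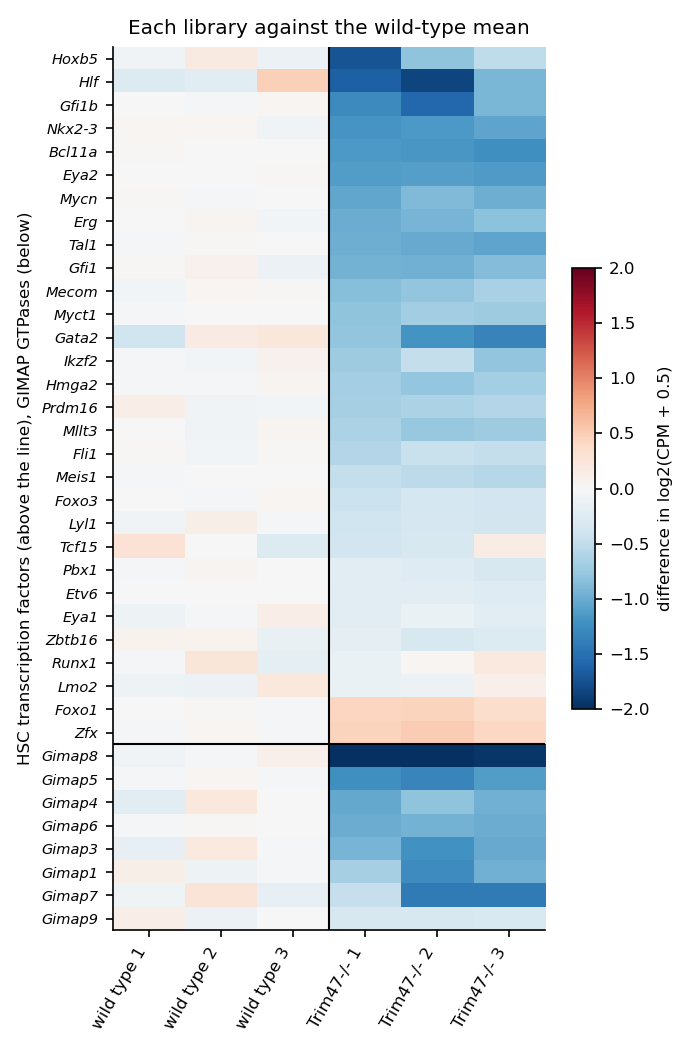
Colour gives each library's difference from the wild-type mean on the log2(CPM + 0.5) scale, limited to 2 in either direction, for the 30 stem cell transcription factors (above the line) and the 8 GIMAP genes (below), with the 3 wild-type libraries left and the 3 Trim47-/- libraries right of the line. Most rows are blue in all 3 Trim47-/- libraries, Foxo1 and Zfx are red, and Hlf, Gata2, Hoxb5 and Gimap7 vary between libraries of a group.

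Surface and signature genes of LT-HSCs moved the same way as the transcription factors. Of 34 measured members, 24 were lower, 4 higher and 6 did not pass, with a median of -0.58 and 11 members at least 2-fold lower. Tie1, a receptor tyrosine kinase of endothelial and stem cells, stood at 96.2, 96.8 and 91.5 CPM in the wild-type libraries and 44.6, 41.1 and 45.5 CPM in those of Trim47-/-, log2 -1.12 (SE 0.0437, adjusted p = 3.59e-09). Vldlr, a lipoprotein receptor, went from 156 ± 3.69 to 72.7 ± 1.60 CPM (SD, n = 3 each). Neither gene's groups overlapped. Among members that rose were the interferon-induced Ifitm3 (0.70) and Ifitm1 (0.25) and the thioredoxin inhibitor Txnip (0.88). Adgrg1, known as GPR56, did not pass, at 1001, 1069 and 1124 CPM in the wild-type libraries and 1137, 1142 and 754 CPM in those of Trim47-/-.

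Genes that define stem and progenitor gates were checked against the LT-HSC label. Kit, the stem cell factor receptor, stood at 461, 455 and 462 CPM in the wild-type libraries and 309, 303 and 295 CPM in those of Trim47-/-, log2 -0.60 (SE 0.0187, adjusted p = 5.36e-10), and Slamf1, the SLAM marker CD150, at 16.7, 16.3 and 16.0 CPM in the wild-type libraries and 5.63, 5.36 and 6.02 CPM in those of Trim47-/-, log2 -1.52 (SE 0.106, adjusted p = 3.48e-07). Procr, the marker EPCR, went from 43.3 ± 1.08 to 20.3 ± 1.27 CPM (log2 -1.09, SE 0.0622). All 3 were lower in each Trim47-/- library than in any wild-type library. Ly6a, which encodes Sca-1, did not pass, at 55.3, 64.8 and 90.7 CPM in the wild-type libraries and 62.5, 91.0 and 109 CPM in those of Trim47-/-, and neither did Cd34, at 737, 729 and 734 CPM in the wild-type libraries and 725, 729 and 727 CPM in those of Trim47-/-. Per kilobase of the longest transcript, Flt3, a receptor of multipotent progenitors, stood at 138 and 113 CPM in wild type and Trim47-/-, and Cd48, absent from the surface of LT-HSCs in the usual SLAM gate, at 89.0 and 74.0 CPM. Slamf1 stood at 3.70 and 1.28 CPM and Procr at 26.9 and 12.6 CPM per kilobase. On the same scale Kit stood at 87.6 and 57.7 CPM and Ly6a at 73.6 and 91.5 CPM, and the early neutrophil gene Mpo at 666 and 1195 CPM. By level per length, Flt3 and Mpo were therefore above Slamf1, Procr and Kit in both groups, and Cd48 was above Slamf1 and Procr. The mean of Cd48 was close to that of Kit in wild type and above it in Trim47-/-. The mean of Ly6a was below that of Cd48 in wild type and above it in Trim47-/-. Cd34, set here among both LT-HSC and progenitor genes, stood at 239.5 and 237 CPM per kilobase, above Flt3 in both groups. Flt3 (-0.30) and Cd48 (-0.27) were themselves lower in Trim47-/-. Which share of cells in each library was LT-HSCs was not measured, and in bulk samples fewer cells of a type and less RNA per cell cannot be told apart.

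The homeobox genes of the Hoxa and Hoxb clusters, which set stem cell identity, were lower or did not pass. Of 22 listed members 16 passed the low-count filter, and of these 12 were lower, 0 higher and 4 did not pass, with a median of -0.81. Hoxa9, the most studied of them in leukaemia and stem cells, stood at 71.7, 66.3 and 63.7 CPM in the wild-type libraries and 41.2, 40.0 and 37.6 CPM in those of Trim47-/-, log2 -0.76 (SE 0.0565, adjusted p = 5.63e-07). Hoxb3 stood at 10.8, 10.4 and 11.8 CPM against 3.54, 3.69 and 1.96 CPM and Hoxa3 at 10.5, 8.67 and 8.73 CPM against 3.83, 4.13 and 4.42 CPM (wild type first), log2 -1.84, SE 0.189 and -1.17, SE 0.103. In these 3 genes the groups did not overlap. Hoxa7 (-0.08) and Hoxa4 (-0.04) did not pass and their libraries overlapped.

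All 8 measured GIMAP genes, small GTPases that support lymphocyte and stem cell survival, were lower. They lie close together on chromosome 6 (GRCm38, from 48647234 to 48770851). Gimap6 stood at 214, 220.5 and 217 CPM in the wild-type libraries and 109, 112 and 109 CPM in those of Trim47-/-, log2 -0.98 (SE 0.0196, adjusted p = 1.24e-11), and Gimap5 at 22.8, 23.8 and 22.7 CPM in the wild-type libraries and 9.53, 8.91 and 10.4 CPM in those of Trim47-/-, log2 -1.26 (SE 0.0690, adjusted p = 4.95e-08). Gimap3, at 1.58, 2.15 and 1.77 CPM against 0.722, 0.507 and 0.653 CPM, and Gimap4, at 2.53, 3.61 and 3.04 CPM against 1.23, 1.52 and 1.31 CPM (wild type first), were low in both groups. The differences ran from -2.23 in Gimap8 to -0.33 in Gimap9, with a median of -1.22, and 5 of the 8 fell at least 2-fold. No Trim47-/- library reached the wild-type range of any GIMAP gene, while the groups did not overlap for 61.3% of all genes. Gimap7 moved from -1.46 to -2.18 when Trim47-/- library 1 was left out.

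Receptors through which stem cells meet their niche split in direction. Of 25 homing and adhesion genes 10 were higher and 10 lower (median 0.00), and 5 did not pass. Esam, an adhesion molecule of endothelial and stem cells, stood at 39.9, 43.3 and 41.9 CPM in the wild-type libraries and 12.3, 14.4 and 14.8 CPM in those of Trim47-/-, log2 -1.59 (SE 0.0774, adjusted p = 1.95e-08), and Robo4, a guidance receptor that holds stem cells in the marrow, was lower (-0.84). Icam1, a ligand of leukocyte integrins, stood at 107, 102 and 106 CPM in the wild-type libraries and 214, 212 and 223 CPM in those of Trim47-/-, log2 1.04 (SE 0.0263, adjusted p = 1.05e-10), with the hyaluronan receptor Cd44 (258 ± 5.82 to 515 ± 18.2 CPM) and the fibronectin receptor subunit Itga5 (log2 1.09) also higher. Itgb1 (0.04) and Selplg (0.03) did not pass. Of 30 cytokine receptors 9 were higher and 10 lower, shares close to the 27.2% and 27.6% of all genes. Csf1r, the M-CSF receptor of monocytes, stood at 56.0, 57.8 and 58.8 CPM in the wild-type libraries and 137, 130.2 and 138 CPM in those of Trim47-/-, log2 1.23 (SE 0.0439, adjusted p = 1.71e-09), and Il6ra (0.95) rose, while Kit and Flt3 fell.

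TGF-beta signalling genes also split, 8 higher, 8 lower and 8 not passing of 24, shares close to those of all genes (27.2% and 27.6%). Tgfbr1, the type I receptor, stood at 43.1, 41.1 and 45.4 CPM in the wild-type libraries and 95.6, 97.9 and 95.3 CPM in those of Trim47-/-, log2 1.16 (SE 0.0427, adjusted p = 2.33e-09), and Acvr1b, an activin receptor, at 94.5, 96.7 and 96.5 CPM in the wild-type libraries and 41.9, 45.9 and 46.5 CPM in those of Trim47-/-, log2 -1.10 (SE 0.0439, adjusted p = 4.20e-09). The receptor Tgfbr1 was thus above and Acvr1b below the wild-type range in all 3 Trim47-/- libraries. Eng, an accessory receptor of LT-HSCs, and Smad1, which carries BMP signals, were lower (-0.55 and -0.81), and the inhibitor Smad6 was higher (1.36). Of 33 regulators of DNA methylation and Polycomb 12 were higher and 10 lower (median -0.03), against 27.2% and 27.6% of all genes. The demethylase Kdm6b, which removes methyl groups from histone H3 lysine 27, stood at 655, 638 and 658 CPM in the wild-type libraries and 1058, 1081 and 1058 CPM in those of Trim47-/-, log2 0.71 (SE 0.0146, adjusted p = 1.61e-11). Tet1, which oxidises methylcytosine, was lower (-1.06), as were the Polycomb genes Cbx7 (-0.83) and Cbx2 (-0.78), and Dnmt3a, the de novo methyltransferase that limits stem cell renewal, did not pass (log2 -0.33). It passed when only these 6 libraries were fitted (adjusted p = 0.00223).

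Immediate early genes, which respond within minutes to growth factors, stress and tissue dissociation, divided in direction, with Fos, Jun, Egr1 and Zfp36 lower and Fosl1 and Noct higher. Of 12 AP-1 and related genes 7 were lower, 4 higher and 1 did not pass. Jun, the partner of Fos, stood at 4107, 4101 and 4132 CPM in the wild-type libraries and 2026, 2020 and 2030 CPM in those of Trim47-/-, log2 -1.02 (SE 0.00802, adjusted p = 3.68e-15). Junb (-0.63), Fosb (-0.65), Fosl2 (-0.31) and Jund (-0.22) were lower as well. Fosl1, the Fos relative FRA-1, stood at 19.1, 18.3 and 19.4 CPM in the wild-type libraries and 52.4, 55.1 and 55.8 CPM in those of Trim47-/-, log2 1.52 (SE 0.0568, adjusted p = 2.51e-09), and Atf3, a stress-induced repressor, at 610.2, 597 and 602 CPM in the wild-type libraries and 828, 843 and 844 CPM in those of Trim47-/-, log2 0.48 (SE 0.0424, adjusted p = 2.58e-06). These 2 genes and the small Maf genes Mafk (0.48) and Mafg (0.48) had every Trim47-/- library above every wild-type library. Maff did not pass, at 125, 120.3 and 129 CPM in the wild-type libraries and 56.0, 123 and 131 CPM in those of Trim47-/-, with 1 Trim47-/- library apart from all others.

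The other immediate early families showed the same division. Egr1, a growth factor-induced zinc finger protein, stood at 1398, 1395 and 1412 CPM in the wild-type libraries and 700.3, 707 and 696 CPM in those of Trim47-/-, log2 -1.00 (SE 0.0114, adjusted p = 1.13e-13), and the orphan receptor Nr4a1 at 2216, 2165 and 2217 CPM in the wild-type libraries and 934, 1193 and 1196 CPM in those of Trim47-/-, log2 -0.99 (SE 0.0724, adjusted p = 5.17e-07). Both fell in all 3 Trim47-/- libraries, while Egr3 (0.41), Nr4a3 (0.94) and the EGR corepressor Nab2 (0.57) rose. Of 13 Kruppel-like factors 7 were higher and 5 lower. Klf2, a factor of quiescent cells, stood at 1208, 1169 and 1168 CPM in the wild-type libraries and 578, 585 and 591 CPM in those of Trim47-/-, log2 -1.02 (SE 0.0151, adjusted p = 9.27e-13), and Klf6 was lower (-0.68), whereas Klf13 (0.96), Klf10 (0.71) and Klf7 (0.80) were higher. Klf4, which restrains cell division in many tissues, was lower by a small step (-0.11). Of 13 MAP kinase phosphatases 7 were higher and 5 lower. Dusp2, a phosphatase of lymphoid and myeloid cells, stood at 592, 604 and 602 CPM in the wild-type libraries and 262, 248 and 265 CPM in those of Trim47-/-, log2 -1.21 (SE 0.0216, adjusted p = 4.75e-12), in the direction of Dusp1. Dusp16 (1.19) and Dusp10 (1.07), which act on the stress kinases JNK and p38, were higher, and the ERK phosphatase Dusp5 did not pass (0.02).

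Regulators of messenger RNA decay and of proliferation also lay on both sides, 8 of 15 lower and 5 higher. Zfp36, tristetraprolin, stood at 2228, 2248 and 2263 CPM in the wild-type libraries and 667, 664 and 671 CPM in those of Trim47-/-, log2 -1.75 (SE 0.0102, adjusted p = 4.05e-16), and its relative Zfp36l2 was lower (-0.75). Btg2, an antiproliferative gene, stood at 469.7, 492 and 465 CPM in the wild-type libraries and 209, 207 and 213 CPM in those of Trim47-/-, log2 -1.18 (SE 0.0223, adjusted p = 8.29e-12). No library of these 3 genes crossed between the groups. Zc3h12a, regnase-1, which cuts inflammatory messenger RNAs, was higher (0.87), beside Noct. Rc3h1, roquin-1, was called higher at 46.0, 123 and 43.3 CPM in the wild-type libraries and 81.8, 227 and 227 CPM in those of Trim47-/- (log2 1.34, SE 0.415), with libraries of both groups overlapping. Its call was lost without wild-type library 1 or 3 or Trim47-/- library 2 or 3 (adjusted p = 0.0656, 0.0692, 0.0613 and 0.0628), and the difference was larger without wild-type library 2 (adjusted p = 9.05e-04). Of 24 further immediate early and stress genes 15 were lower and 7 higher, against 27.6% and 27.2% of all genes. Socs3, a feedback inhibitor of cytokine signalling, stood at 455, 460.4 and 459 CPM in the wild-type libraries and 188, 190.2 and 188 CPM in those of Trim47-/-, log2 -1.28 (SE 0.0188, adjusted p = 9.27e-13), and Ier3 at 343, 347 and 350.5 CPM in the wild-type libraries and 126, 130.4 and 129 CPM in those of Trim47-/-, log2 -1.43 (SE 0.0213, adjusted p = 9.27e-13). Rhob (-0.72) and Id1 (-0.89) were also lower, and the kinase Sgk1 (0.84), Gadd45a (0.52) and Errfi1 (1.09) higher.

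**Figure D3:**
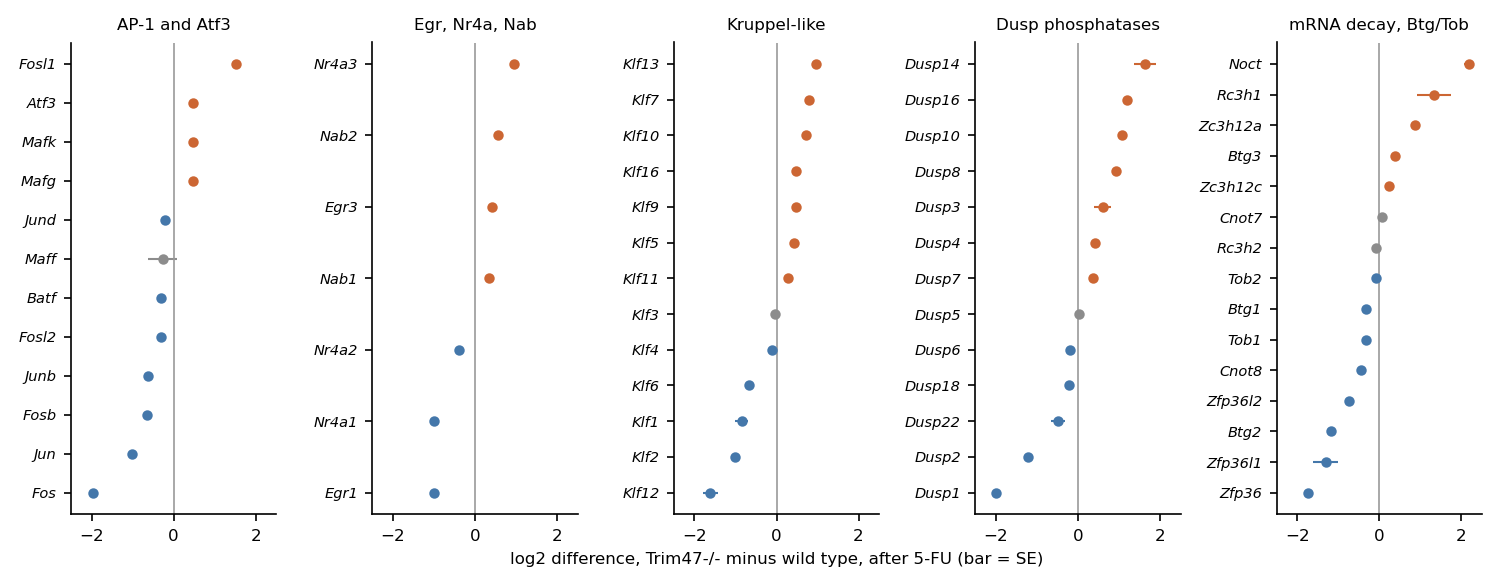
Log2 difference with its standard error (bar, derived from the test's F value) for each measured member of 5 families of immediate early and feedback genes. Members are ordered from the highest to the lowest and coloured orange where called higher, blue where called lower and grey where not called. Each family spans both directions, with Fos, Egr1, Klf12, Dusp1 and Zfp36 at the lower ends and Fosl1, Nr4a3, Klf13, Dusp14 and Noct at the upper ends.

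The promoters of Zfp36 and Dusp1 are printed because these genes had some of the largest falls and their windows hold a motif through which immediate early genes are classically switched on. The sequences are the 250 bases before the RefSeq start site, 5′ to 3′ on the gene's strand (GRCm38.p6, chr7:28379229-28379478 and chr17:26508473-26508722, minus strand for both), with motif matches in capitals. In Zfp36 the capitals mark a CArG box, the site of serum response factor, at bases -58 to -49 counted from the start site, and in Dusp1 a cAMP response element (CRE, TGACGTCA) at -143 to -136.
Zfp36: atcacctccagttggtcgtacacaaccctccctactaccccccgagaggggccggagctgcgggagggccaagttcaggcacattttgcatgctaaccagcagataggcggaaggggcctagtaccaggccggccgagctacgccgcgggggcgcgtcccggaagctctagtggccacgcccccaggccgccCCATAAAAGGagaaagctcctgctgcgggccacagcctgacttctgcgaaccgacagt
Dusp1: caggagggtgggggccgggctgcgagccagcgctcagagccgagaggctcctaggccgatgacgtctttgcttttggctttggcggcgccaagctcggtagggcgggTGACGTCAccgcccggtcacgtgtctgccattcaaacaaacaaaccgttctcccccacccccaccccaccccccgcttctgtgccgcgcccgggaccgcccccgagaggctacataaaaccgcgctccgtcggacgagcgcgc
Of the 43 genes called lower in the immediate early families, 37 had a window in RefSeq. Of these 37, 3 held a CRE (8.11%, in Btg2, Dusp1 and Ppp1r15a), against 439 of all 27025 windows (1.62%), 1 held a CArG box (2.70% against 1.40%) and 0 held an AP-1 site (TGAGTCA, 4.43% of all windows). In the windows shown, these matches overlap no other motif searched. Of 27 windows of genes called higher in the same families, 1 held a CRE (3.70%) and 0 a CArG box, with both strands searched. A match describes the sequence only, and all windows include those of genes not tested here.

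Genes of NF-kB signalling, which turns on inflammatory and survival genes, were mostly higher. Of 24 subunits and regulators 16 were higher, 4 lower and 4 did not pass, with a median of 0.40. Rel, the subunit c-Rel, stood at 184, 181 and 183 CPM in the wild-type libraries and 459, 472 and 457 CPM in those of Trim47-/-, log2 1.34 (SE 0.0226, adjusted p = 2.90e-12). Nfkb2, the precursor of p52, stood at 110.3, 111 and 113 CPM in the wild-type libraries and 235, 239 and 236 CPM in those of Trim47-/-, log2 1.09 (SE 0.0214, adjusted p = 1.13e-11), and its partner Relb went from 23.7 ± 1.52 to 52.6 ± 0.625 CPM, log2 1.15, SE 0.0520. In each of the 3 genes the Trim47-/- libraries were more than 2 times the wild-type libraries, while Nfkb1, the precursor of p50, did not pass (0.04). The inhibitors Nfkbia (0.48) and Nfkbib (0.94), themselves targets or partners of NF-kB, and the ubiquitin ligase Birc3 (0.67) were higher. Map3k14, the kinase NIK that triggers the making of p52, the deubiquitinase Cyld and Ikbkg were lower (-0.53, -0.22 and -0.55). Tnfaip3 had the largest fall of the list (-1.06) and was the 1 member at least 2-fold lower, against 3 at least 2-fold higher. The kinase gene Ikbkb did not pass (0.00). The call of Cyld was lost without wild-type library 1 or 2 or Trim47-/- library 1 or 3 (adjusted p = 0.0670, 0.0891, 0.0531 and 0.0729).

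The promoters of Nfkb2 and Rel are shown because both genes rose and both windows hold an NF-kB site (GGGNNTTTCC on either strand), with coordinates chr19:46304487-46304736 (plus strand) and chr11:23770970-23771219 (minus strand) of GRCm38.p6. Capitals mark the site at -11 to -2 in Nfkb2. In Rel they mark a site at -91 to -82 on the opposite strand that overlaps an E2F word at -94 to -87, so the 2 matches share bases.
Nfkb2: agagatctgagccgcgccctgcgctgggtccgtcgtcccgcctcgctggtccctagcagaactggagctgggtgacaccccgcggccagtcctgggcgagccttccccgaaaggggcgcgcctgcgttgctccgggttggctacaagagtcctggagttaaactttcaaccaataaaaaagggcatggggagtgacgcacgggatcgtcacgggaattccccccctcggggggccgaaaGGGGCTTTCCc
Rel: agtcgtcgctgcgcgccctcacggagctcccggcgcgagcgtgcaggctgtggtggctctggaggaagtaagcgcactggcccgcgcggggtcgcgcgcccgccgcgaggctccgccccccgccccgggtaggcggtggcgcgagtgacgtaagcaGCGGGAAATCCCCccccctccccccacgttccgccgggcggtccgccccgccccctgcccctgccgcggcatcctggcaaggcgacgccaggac
Of the 16 subunits and regulators called higher 14 had a window, and an NF-kB site stood in 3 of these (21.4%, in Nfkb2, Nfkbia and Rel), against 378 of 27025 (1.40%) of all windows. Members not called higher were not counted and all windows include genes not tested, so the share cannot be tied to the rise.

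Genes that NF-kB induces did not move as one. Of 29 chemokines and activation genes 13 were higher, 9 lower and 7 did not pass (median 0.35), and 6 rose and 2 fell at least 2-fold. Cd83 stood at 8.08, 7.91 and 7.91 CPM in the wild-type libraries and 29.5, 31.3 and 29.0 CPM in those of Trim47-/-, log2 1.91 (SE 0.0387, adjusted p = 1.43e-11), and the hexose transporter Slc2a6 at 7.20, 8.16 and 7.47 CPM in the wild-type libraries and 25.2, 28.4 and 28.0 CPM in those of Trim47-/-, log2 1.84 (SE 0.0855, adjusted p = 1.37e-08). Cd69, an early activation marker, stood at 408, 408 and 402 CPM in the wild-type libraries and 169, 168 and 161 CPM in those of Trim47-/-, log2 -1.29 (SE 0.0185, adjusted p = 8.13e-13), and the chemokine Cxcl2 (-0.72) and the prostaglandin synthase Ptgs2 (-0.66) fell with it. Every Trim47-/- library of Cd83, Slc2a6 and Icam1 was above, and every one of Cd69, Cxcl2 and Ptgs2 below, the wild-type range.

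Many inflammasome and activated myeloid genes rose with Acod1, Nlrp3 and Lgals3. Of 32 listed members 28 passed the filter, 15 of them higher, 4 lower and 9 not called, and 9 were at least 2-fold higher against 3.38% of all genes. Trem1, a receptor that amplifies neutrophil and monocyte activation, stood at 37.2, 37.8 and 34.7 CPM in the wild-type libraries and 102, 104 and 101 CPM in those of Trim47-/-, log2 1.48 (SE 0.0407, adjusted p = 1.99e-10). Mefv, the sensor pyrin, went from 6.49 ± 0.391 to 16.7 ± 1.83 CPM (log2 1.36, SE 0.0910). The cytokine Il18 (-0.76) and the flagellin sensor Naip5 (-0.43) were lower, and the adaptor Pycard (0.11) and the pore-forming Gsdmd (-0.08) did not pass. Of 25 Toll-like receptor genes 9 were higher, 5 lower and 11 did not pass, against 27.2% and 27.6% of all genes higher and lower. Tlr2 stood at 18.6, 19.2 and 20.3 CPM in the wild-type libraries and 79.7, 80.6 and 75.3 CPM in those of Trim47-/-, with every Trim47-/- library far above the wild-type range. Tlr9, a receptor for DNA, stood at 2.91, 2.15 and 1.58 CPM against 6.93, 8.11 and 8.27 CPM (wild type first, log2 1.81, SE 0.184). Tlr13, a receptor for bacterial RNA, was higher too (1.63, SE 0.194). The signalling kinase Irak2 (1.60) rose while Irak3 (-0.54), which restrains the pathway, and Irak4 (-0.37) fell.

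The antiviral pathway in which tripartite-motif ligases are best known held genes called in both directions. Of 30 genes of RIG-I-like receptors and MAVS, 12 were higher and 11 lower, against 27.2% and 27.6% of all genes. The other 7 did not pass, none of the 30 differed by 2-fold and the median was 0.02. Trim25, the ligase that activates RIG-I, stood at 142, 139 and 140.3 CPM in the wild-type libraries and 221, 209 and 204 CPM in those of Trim47-/-, log2 0.59 (SE 0.0292, adjusted p = 2.32e-08), and the RNA-binding Zc3hav1 was higher (0.49). Ddx58, RIG-I itself, stood at 92.0, 89.8 and 86.9 CPM in the wild-type libraries and 65.8, 61.1 and 62.5 CPM in those of Trim47-/-, log2 -0.50 (SE 0.0396, adjusted p = 9.22e-07), and Itch, which degrades MAVS, was lower (-0.46). Tbk1, the kinase below MAVS, did not pass (-0.03). Of 12 interferon regulatory factors 6 were higher and 4 lower. Irf8, a factor of monocytes and dendritic cells, went from 54.0 ± 1.29 to 108 ± 2.58 CPM (SD, n = 3 each, adjusted p = 0.00164). Irf7, induced by interferon, stood at 30.0, 29.9 and 29.9 CPM in the wild-type libraries and 52.5, 51.1 and 46.5 CPM in those of Trim47-/-, log2 0.74 (SE 0.0595, adjusted p = 1.10e-06). Irf2, needed for stem cell quiescence under interferon, stood at 68.9, 76.0 and 80.2 CPM in the wild-type libraries and 41.5, 39.9 and 40.4 CPM in those of Trim47-/-, log2 -0.89 (SE 0.0616, adjusted p = 3.44e-07). Of 59 interferon-stimulated genes 26 (a share above the 27.2% background) were higher, 14 lower and 19 did not pass, with a median of 0.12. Mx1 (1.54), Bst2 (0.88) and Gbp3 (0.56) were higher, Gbp7 (-0.44), Dtx3l (-0.48) and Samhd1 (-0.37) were lower, and Oas2 (0.00) did not pass.

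Genes of the neutrophil and monocyte lineages were mostly higher. Of 10 early neutrophil granule genes 6 were higher, 0 lower and 4 did not pass (median 0.47), and their summed level was 3983 to 4038 CPM in wild type against 6037 to 6479 CPM. Mpo, myeloperoxidase, stood at 1839, 1794 and 1861 CPM in the wild-type libraries and 3017, 3371 and 3467 CPM in those of Trim47-/-, log2 0.84 (SE 0.0443, adjusted p = 3.65e-08), and Ctsg, cathepsin G, at 418, 436 and 418 CPM in the wild-type libraries and 723, 719 and 717 CPM in those of Trim47-/-, log2 0.76 (SE 0.0250, adjusted p = 8.60e-10). The groups did not overlap in either. Of 18 late neutrophil genes 14 were higher and 2 lower (median 0.73), with a summed level of 1493 to 1519 CPM in wild type against 2096 to 2191 CPM. Ltf, lactoferrin, stood at 87.2, 79.3 and 90.8 CPM in the wild-type libraries and 188, 187 and 193 CPM in those of Trim47-/- and Ngp at 199, 197 and 194 CPM in the wild-type libraries and 366, 364 and 378 CPM in those of Trim47-/-, log2 1.14 and 0.91. Chil3 (-0.18) and Padi4 (-0.22) were lower, and Ly6g, which defines mature neutrophils, had 5 to 10 counts in every library. Of 23 monocyte and macrophage genes 16 were higher, 2 lower and 5 did not pass (median 0.43), with a summed level of 806 to 815 CPM in wild type against 1354 to 1394 CPM. F13a1, a coagulation factor of monocytes, stood at 124, 119 and 120.3 CPM in the wild-type libraries and 288, 299 and 305 CPM in those of Trim47-/-, log2 1.29 (SE 0.0329, adjusted p = 1.07e-10), and Mpeg1 (1.24), Cd14 (1.36) and Ms4a6c (0.69) rose. Of the genes that define macrophages, C1qa had at most 5 counts in a library, Cd163 did not pass (-0.57) and Adgre1 was higher (1.10). Adgre1 stood at 2.40, 3.73 and 1.96 CPM in the wild-type libraries and 7.44, 5.79 and 4.13 CPM in those of Trim47-/-.

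The transcription factors that decide between lineages also split in direction. Spi1, PU.1 of the myeloid lineage, stood at 154, 164 and 165 CPM in the wild-type libraries and 236, 237 and 237 CPM in those of Trim47-/-, log2 0.56 (SE 0.0382, adjusted p = 3.22e-07), and Cebpa, which opens the granulocyte fate, at 81.1, 83.3 and 83.8 CPM in the wild-type libraries and 133, 134 and 135 CPM in those of Trim47-/-, log2 0.70 (SE 0.0626, adjusted p = 2.80e-06). All 3 Trim47-/- libraries exceeded all wild-type libraries in both. Runx3 was higher (0.70), while Cebpb, Ikzf1 and Satb1 were lower (-0.40, -0.27 and -0.31). Over the whole set of 23, 4 were higher, 10 lower and 9 did not pass.

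Early lymphoid genes were mostly lower. Of 15 measured members 13 were lower and 2 higher (median -0.46), with a summed level of 2065 to 2079 CPM in wild type against 1729 to 1764 CPM. Dntt, the terminal transferase, stood at 433, 426 and 426 CPM in the wild-type libraries and 208, 219 and 214 CPM in those of Trim47-/-, log2 -1.00 (SE 0.0219, adjusted p = 2.97e-11). Rag1 and Rag2, which cut antigen receptor genes, were under 2 CPM in all 6 libraries and lower in Trim47-/- (-2.33 and -2.72, the latter -3.33 without Trim47-/- library 2). The transcription factor gene Mef2c was among the members that rose (0.79). Of 15 B and plasma cell genes 9 were lower and 0 higher, with a summed level of 501 to 569 CPM in wild type against 389.7 to 425 CPM. The light chain gene Igkc stood at 214, 226 and 209 CPM in the wild-type libraries and 144, 136 and 142 CPM in those of Trim47-/-, log2 -0.62 (SE 0.0302, adjusted p = 2.02e-08), with no overlap between the groups. Of the lymphoid markers, Cd3e of T cells, Ncr1 of natural killer cells and Ms4a1 of B cells had at most 5 counts in any library.

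Erythroid and megakaryocyte genes were also lower more often than higher. Of 25 erythroid genes 15 were lower, 2 higher and 8 did not pass (median -0.27), with a summed level of 1276 to 1310 CPM in wild type against 1109 to 1133 CPM. The carbonic anhydrase Car2 stood at 285, 300.5 and 273 CPM in the wild-type libraries and 156, 157 and 166 CPM in those of Trim47-/-, log2 -0.84 (SE 0.0421, adjusted p = 2.52e-08), and Hemgn was lower (-0.90). The transferrin receptor Tfrc, which all dividing cells use, was higher (0.36) and the erythrocyte anion exchanger Slc4a1 did not pass (-0.10). Of 19 megakaryocyte and platelet genes 12 were lower and 3 higher (median -0.41), with a summed level of 1054 to 1127 CPM in wild type against 1056 to 1078 CPM. Selp, P-selectin, stood at 158, 155 and 157 CPM in the wild-type libraries and 94.3, 89.3 and 93.2 CPM in those of Trim47-/-, log2 -0.76 (SE 0.0409, adjusted p = 4.15e-08), and Mmrn1 was lower (-0.98), whereas Thbs1, thrombospondin-1, went from 17.1 ± 0.933 to 59.5 ± 2.39 CPM (adjusted p = 1.99e-10). Selp was lower and Thbs1 higher in all 3 Trim47-/- libraries. Of 11 measured mast cell, basophil and eosinophil genes 3 were higher and 6 lower (median -0.35). The eosinophil genes Prg2 (-0.82), Prg3 (-1.01) and Epx (-1.04) were lower, as were the basophil protease Prss34 (-0.33), the mast cell protease Cpa3 (-0.48) and the interleukin-33 receptor Il1rl1 (-0.75), while the basophil protease Mcpt8 (0.85) and the histamine enzyme Hdc (0.89) were among those higher. Of 11 endothelial and stromal genes 0 were higher and 5 lower; Emcn, also expressed in LT-HSCs, stood at 11.7, 12.8 and 13.3 CPM in the wild-type libraries and 5.06, 5.79 and 5.80 CPM in those of Trim47-/- and Cdh5 had at most 16 counts in a library. The part that such cells had in the differences above was not tested.

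DNA replication genes were mostly higher while mitotic genes were more often lower. Of 28 genes of the MCM helicase and origin licensing 18 were higher, 1 lower and 9 did not pass (median 0.22), none by 2-fold. Mcm5, a subunit of the replicative helicase, stood at 299, 305 and 301 CPM in the wild-type libraries and 417, 414 and 423 CPM in those of Trim47-/-, log2 0.47 (SE 0.0188, adjusted p = 4.20e-09), and Mcm7, another subunit, at 258, 256 and 274 CPM in the wild-type libraries and 355, 346 and 366 CPM in those of Trim47-/-, log2 0.44 (SE 0.0307, adjusted p = 3.73e-07). Orc1, of the origin recognition complex, had the largest rise (0.77) and Orc5 was the gene that fell (-0.52). Of 31 polymerase and nucleotide supply genes 21 were higher and 1 lower, among them the clamp Pcna (0.31) and the ribonucleotide reductase Rrm1 (0.28). Of 21 genes of the G1 phase 10 were higher and 2 lower: the cyclins Ccnd1 (0.70), Ccnd2 (0.51) and Ccne1 (0.73) and E2f1 (0.40) rose, Myc fell (-0.80) and Cdk6 did not pass (0.02). Of 42 mitotic genes 22 were lower, 9 higher and 11 did not pass (median -0.15), against 27.6% and 27.2% of all genes. Their summed level overlapped between the groups, at 4194 to 4290 CPM in wild type against 4176 to 4219 CPM. The median was -0.09 after subtracting the median of genes of like transcript length. Plk1, a kinase of mitotic entry, stood at 56.7, 61.5 and 58.4 CPM in the wild-type libraries and 40.1, 37.5 and 37.2 CPM in those of Trim47-/-, log2 -0.62 (SE 0.0463, adjusted p = 5.99e-07), and Hmmr was lower (-0.69), while the proliferation marker Mki67 stood at 533, 541 and 543 CPM in the wild-type libraries and 670.1, 667 and 662 CPM in those of Trim47-/-, log2 0.31 (SE 0.0153, adjusted p = 2.50e-08). Of 23 quiescence genes and brakes 13 were lower and 3 higher, Rbl2 (-0.70) and Foxo3 (-0.39) among those lower and Cdkn1a, p21, not passing at 192, 187 and 215 CPM in the wild-type libraries and 256, 148 and 188 CPM in those of Trim47-/-.

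The promoters of Mcm5 and Mcm7 are shown because their genes rose and their windows hold E2F words (TTTGGCGC, TTTCCCGC, TTTCGCGC or TTTGCCGC on either strand), the letters through which E2F factors switch on replication genes. They lie at chr8:75109259-75109508 (plus strand) and chr5:138171884-138172133 (minus strand) of GRCm38.p6. In Mcm5 the first capitals mark 2 overlapping words at -153 to -146 and -149 to -142 and the second a CRE at -99 to -92, and in Mcm7 they mark 1 word at -165 to -158.
Mcm5: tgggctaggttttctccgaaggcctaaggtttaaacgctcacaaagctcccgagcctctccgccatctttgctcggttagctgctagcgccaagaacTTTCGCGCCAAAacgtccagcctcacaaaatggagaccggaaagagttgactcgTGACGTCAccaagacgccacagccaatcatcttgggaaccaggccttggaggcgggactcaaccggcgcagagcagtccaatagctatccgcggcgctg
Mcm7: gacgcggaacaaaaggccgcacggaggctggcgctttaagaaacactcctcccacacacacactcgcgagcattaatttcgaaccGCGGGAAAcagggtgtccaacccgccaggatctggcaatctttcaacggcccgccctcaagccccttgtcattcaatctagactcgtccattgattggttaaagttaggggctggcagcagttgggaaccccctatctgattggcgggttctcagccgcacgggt
Of the 18 licensing genes called higher 15 had a window, and an E2F word stood in 6 of these (40.0%, with Mcm6 and Orc1 among the others), against 517 of 27025 (1.91%). Here too the background held genes not tested, and licensing genes not called higher were not searched, so the share cannot be tied to the rise.

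Targets of p53, the DNA damage factor that 5-FU can activate, did not move together. Of 32 measured targets 15 were lower, 8 higher and 9 did not pass. Mdm2, the ligase that degrades p53, stood at 91.0, 90.9 and 88.1 CPM in the wild-type libraries and 185, 191 and 182 CPM in those of Trim47-/-, log2 1.05 (SE 0.0305, adjusted p = 3.38e-10), and Pmaip1, the death gene NOXA, at 42.4, 41.1 and 41.5 CPM in the wild-type libraries and 112, 116 and 111 CPM in those of Trim47-/-, log2 1.44 (SE 0.0376, adjusted p = 1.37e-10). Plk2, a kinase induced by stress, stood at 143, 145 and 139 CPM in the wild-type libraries and 65.3, 60.7 and 63.3 CPM in those of Trim47-/-, log2 -1.17 (SE 0.0344, adjusted p = 3.47e-10), and Gdf15 and Btg2 fell with it. Of 16 BCL2 family genes 7 were higher and 0 lower. The death genes Bbc3, PUMA (0.72), and Bcl2l11, BIM (0.81), rose, the survival gene Mcl1 rose by little (0.09) and Bcl2 did not pass (-0.08). Of 30 double-strand break repair genes 12 were lower and 6 higher: the checkpoint kinase Chek2 (-0.74) and the end-joining gene Xrcc5 (-0.59) fell and Brca1 rose (0.30). Of 26 genes that activate, degrade or answer to fluoropyrimidines 16 were higher and 2 lower, none by 2-fold. Uck2, a uridine kinase that can phosphorylate fluorouridine, stood at 286, 259.6 and 279.9 CPM in the wild-type libraries and 457, 448 and 443 CPM in those of Trim47-/-, log2 0.71 (SE 0.0444, adjusted p = 1.52e-07), and Umps, which converts 5-FU to its nucleotide, was higher (0.45).

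Genes for making, folding and removing proteins were mostly higher, by small steps. Of 35 ribosome biogenesis genes 32 were higher and 0 lower (median 0.44). Ncl, nucleolin, stood at 1348, 1340 and 1345 CPM in the wild-type libraries and 1888, 1859 and 1887 CPM in those of Trim47-/-, log2 0.48 (SE 0.0197, adjusted p = 4.76e-09), and Rrp12 at 73.6, 72.7 and 71.0 CPM in the wild-type libraries and 134, 139.5 and 144 CPM in those of Trim47-/-, log2 0.94 (SE 0.0382, adjusted p = 4.49e-09). All 32 measured proteasome subunits were higher, from 0.19 to 0.57 (median 0.36). Psmb3 stood at 63.2, 67.1 and 64.7 CPM in the wild-type libraries and 96.6, 95.6 and 97.5 CPM in those of Trim47-/-, log2 0.57 (SE 0.0405, adjusted p = 3.97e-07). Of 31 chaperones and sensors of the endoplasmic reticulum 26 were higher and 1 lower (median 0.46), including calreticulin, Calr (0.58), Hyou1 (0.66) and Xbp1 (0.72), with Dnajb9 the one that fell (-0.16). Of 27 integrated stress response genes 19 were higher and 4 lower: the amino acid transporters Slc7a1 and Slc7a5 stood at 86.0, 86.8 and 90.4 CPM in the wild-type libraries and 177, 174 and 180.3 CPM in those of Trim47-/- and at 139, 142 and 139 CPM in the wild-type libraries and 256, 258 and 250.4 CPM in those of Trim47-/-, log2 1.01, SE 0.0304 and 0.86, SE 0.0264. Of 26 cytosolic heat shock genes 18 were higher and 4 lower, Bag3 (1.12) and Hspa4 (0.45) up and Dnajb1 (-0.36) down. Cytosolic ribosomal proteins had 50 of 81 higher and a median of 0.14, which was 0.05 after subtracting the median of genes of like transcript length.

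Respiratory chain genes were higher or did not pass, with differences under 2-fold. Of 38 nuclear complex I genes 16 were higher and 0 lower, of 25 genes of complexes II to IV 20 and 0, and of 16 ATP synthase genes 11 and 0. Atp5b, the catalytic subunit of ATP synthase, stood at 927, 894 and 894 CPM in the wild-type libraries and 1154, 1152 and 1157 CPM in those of Trim47-/-, log2 0.35 (SE 0.0205, adjusted p = 8.83e-08). These lists had medians of 0.18, 0.31 and 0.33, and of 0.08, 0.20 and 0.25 relative to genes of like length. All 13 mitochondrially encoded messenger RNAs were higher (median 0.18, and 0.10 relative to genes of like length). The smallest p was in mt-Nd1 at 1191, 1165 and 1174 CPM in the wild-type libraries and 1480, 1504 and 1486 CPM in those of Trim47-/-, log2 0.34 (SE 0.0125, adjusted p = 2.24e-09). All 13 were also higher in the untreated comparison (median 0.14), and 4 of them had a more positive difference after 5-FU than untreated. Of 21 TCA cycle genes 14 were higher and 0 lower. In glucose use, the transporter Slc2a1 stood at 69.5, 68.8 and 67.3 CPM in the wild-type libraries and 133, 132 and 133 CPM in those of Trim47-/-, log2 0.95 (SE 0.0336, adjusted p = 1.59e-09), Slc2a3 was lower (-0.42), and Pfkm, phosphofructokinase of muscle type, was lower (-0.61), within 11 higher and 7 lower of 25. Cholesterol synthesis genes had 17 of 27 that did not pass, and lysosome and autophagy genes 15 of 33.

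**Figure D4:**
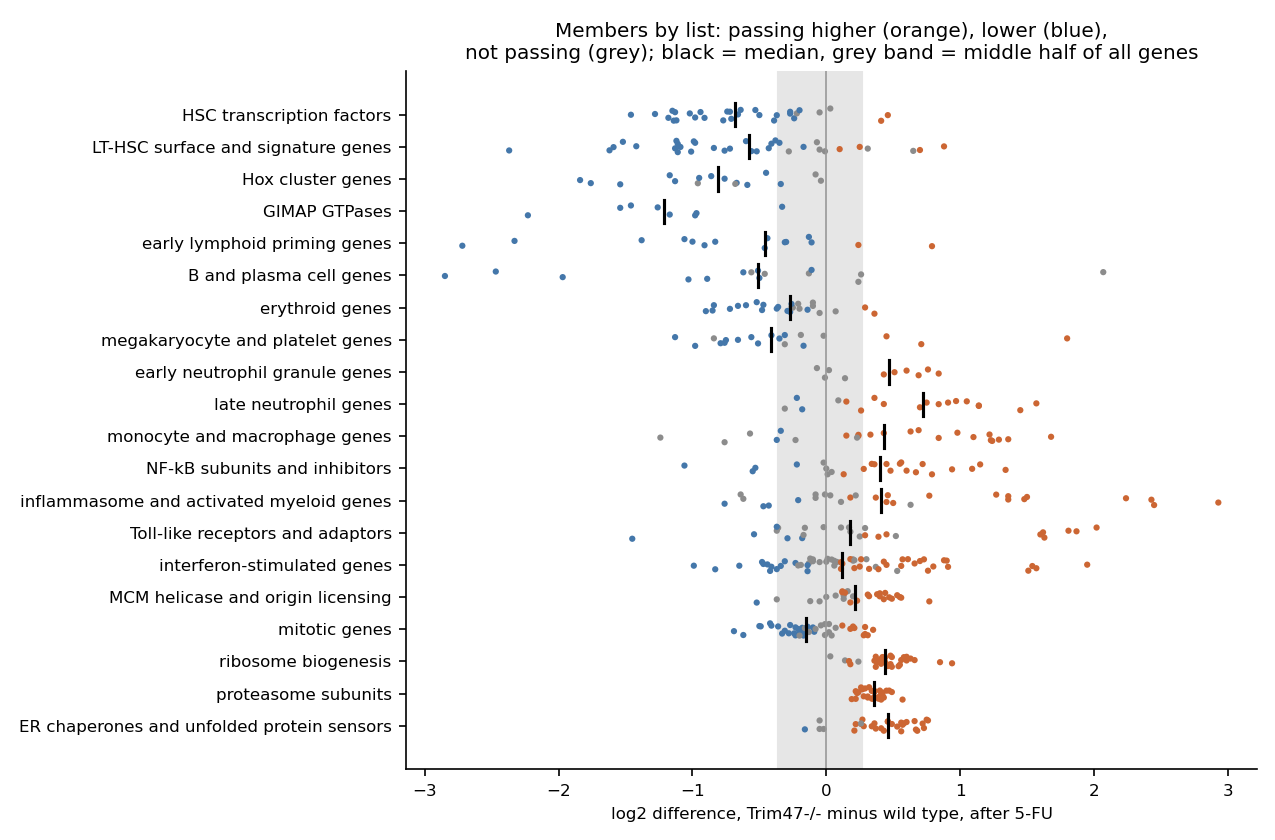
Each point is 1 measured gene of a list, placed by its log2 difference and coloured orange where called higher, blue where called lower and grey where not called; points are spread vertically at random within a row. The black bar is the list's median and the grey band the middle 50% of all genes tested. The medians of stem cell, Hox, GIMAP and lymphoid lists lie left of the band, those of neutrophil, monocyte, NF-kB, ribosome biogenesis, proteasome and ER chaperone lists right of it, and single inflammasome and Toll-like receptor genes reach 2 and beyond.

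For many genes the genotype difference after 5-FU was not the one seen without the drug. This comparison rests on the genotype labels of the untreated libraries, in which Trim47 itself was not called and 1 library labelled Trim47-/- (23.7 CPM) was next to the lowest wild-type one (23.8 CPM). The difference of the 2 differences, tested as the interaction in the same edgeR fit, was called for 8957 genes (54.9%), and in the untreated comparison 5392 genes were called, 2873 (17.6%) higher and 2519 (15.4%) lower. For 3388 genes the untreated and the 5-FU difference were both called and had opposite signs, and the interaction was called too. Acod1 differed by -1.96 untreated and 2.93 after 5-FU, an interaction of 4.90 (SE 0.161, adjusted p = 8.02e-10). Nlrp3 had an interaction of 4.03 (SE 0.136, adjusted p = 1.03e-09), Mmp19 of 3.76 (SE 0.277, adjusted p = 5.53e-07) and Thbs1 of 3.27 (SE 0.0677, adjusted p = 1.80e-11), each being lower in the untreated and higher in the 5-FU libraries labelled Trim47-/-. At the other end, Gimap8 differed by 0.72 untreated and -2.23 after 5-FU, an interaction of -2.95 (SE 0.108, adjusted p = 1.84e-09). Zfp532, Eps8l1 and Gprc5b, the last an orphan receptor, had interactions of -2.64, -2.55 and -2.49, again with opposite signs in the 2 states. Of the 30 stem cell transcription factors 23 had a lower and 2 a higher difference after 5-FU than untreated, and of the 8 GIMAP genes 7 a lower one.

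Some lists and genes differed in the same direction in both states. The megakaryocyte and platelet list had a median of -0.59 untreated, with 13 genes lower and 2 higher, and -0.41 after 5-FU. Its interaction passed upward in 9 genes and downward in 5. Late neutrophil genes had a median of 0.30 untreated, with 10 higher and 1 lower, and 0.73 after 5-FU. Their interaction passed upward in 10 genes and downward in 2. All 13 mitochondrially encoded messenger RNAs were higher in both states. Cxcl2, a neutrophil chemokine, was lower in both, at -0.94 (adjusted p = 3.28e-09) untreated and -0.72 (SE 0.0324, adjusted p = 1.06e-08) after 5-FU, and Ltf was higher in both, at 0.70 (adjusted p = 2.24e-06) and 1.14 (adjusted p = 8.17e-09), with interactions of 0.23 and 0.44 that passed. For mt-Cytb the 2 differences were 0.23 and 0.22, with an interaction of -0.01 (SE 0.0161, adjusted p = 0.622) that did not pass. Fosl2 (-0.32 and -0.31), Kmt2a (-0.45 and -0.40) and Vcam1 (-0.31 and -0.37) were lower in both, and their interactions did not pass either, at adjusted p = 0.829, 0.442 and 0.595.

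**Figure D5:**
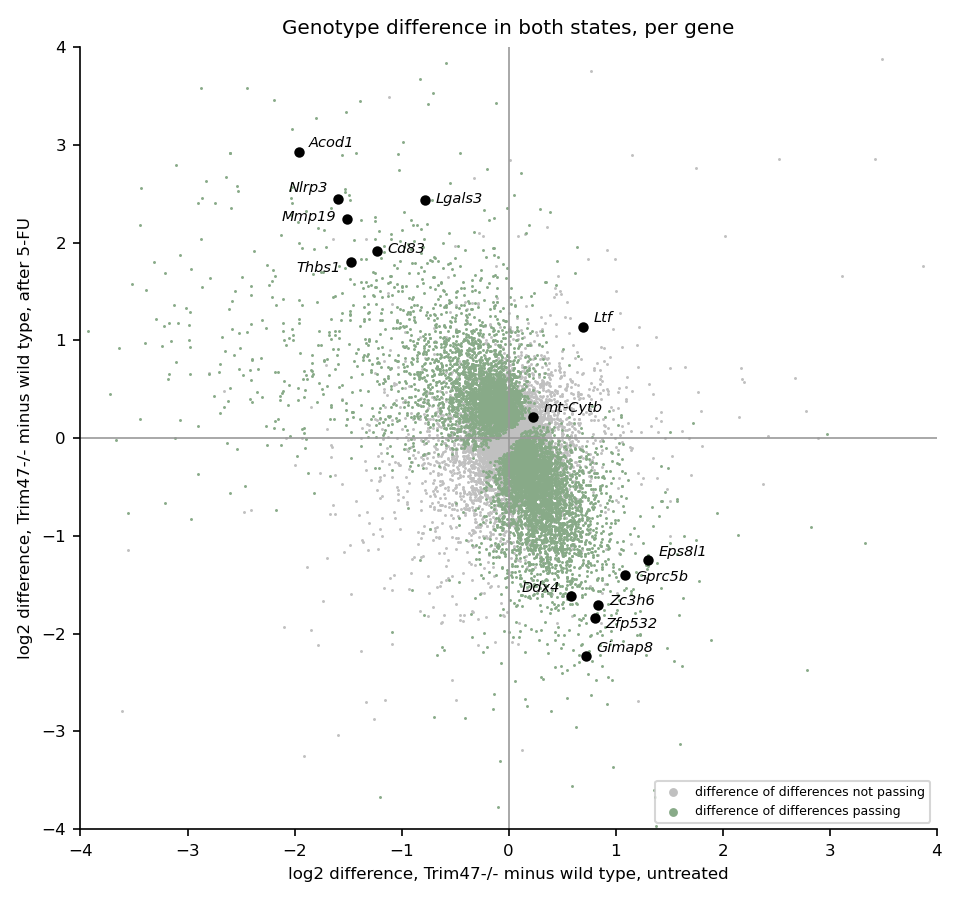
Each point is 1 gene, with the log2 difference in untreated libraries on the horizontal axis and that after 5-FU on the vertical axis, both limited to 4 in either direction (76 genes lie outside). Green points passed the test of the difference between the 2, which by construction selects points away from the diagonal of equal differences. The named genes include the 6 with the largest interaction in each direction, in the upper left and lower right, and Ltf and mt-Cytb, higher in both states.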

How the data were processed

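RNA was sequenced from 12 libraries labelled as LT-HSCs, 3 in each of 4 groups (genotype by 5-FU). Per the submitters' processing notes, CASAVA 1.8, HISAT2, StringTie and edgeR were used with the build GRCm38. Neither the counter nor the annotation release is named there, and no setting for strand is given. The authors deposited whole-number counts per gene, which were used as they stand, and FPKM values in the same table, which the authors scaled by length and depth and which entered no test.

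Groups were taken from the labels. Genes with few counts were removed with edgeR's filterByExpr, libraries were scaled by TMM, and all 12 were fitted in one quasi-likelihood model with a term per group (edgeR 4.0.16 in R 4.3.3). The genotype differences and their interaction were tested in it, with Benjamini-Hochberg adjustment over 16319 genes. Each SE given is the size of the log2 difference divided by the square root of the test's F value. CPM use the library sizes scaled by TMM. Reads from overlapping or near-identical genes cannot be told apart in gene counts. Levels per kilobase used the longest GENCODE M21 transcript. The procedure was also run on simulated data, and the outcome is not given here. Total counts a library set the precision, so a gene near 1 CPM rests on few reads.

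The genes named were Trim47 and Trim65, the 12 largest changes in each direction averaging 10 CPM or more without overlap between groups (gene models without a name and antigen receptor segments left out), the 6 largest interactions in each direction, and markers that define a cell type. Within a list they were the members with the smallest p (up to 6), those called against the majority (up to 3), the most abundant not called (up to 2), or any member of a list of 15 or fewer. Gata2, Hoxb5, Ppp1r15a and Tnfaip3 were named after their values were seen. The comparison, the 61 lists and the rule were chosen with earlier results of these data known. Alternatives were the size factors and the test of DESeq2 1.42.0, a fit without the filter, a fit of the 6 libraries alone, each library left out in turn, a replicate block and an adjusted p under 0.01. Promoter windows came from RefSeq (GRCm38.p6), matched by symbol for 10601 of the genes tested. A few genes that the rule names are not reported here.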

Additional observations from a re-analysis of the deposited data

Results flagged for a closer look

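The genotype difference after 5-FU departed from the untreated one for 8957 genes, by the interaction test of edgeR. Of the genes named for their size of change, 27 were among them, and their values are the log2 difference after 5-FU minus that in untreated libraries. More positive after 5-FU than untreated were Acod1 at 4.90, Nlrp3 at 4.03, Mmp19 at 3.76, Thbs1 at 3.27, Lgals3 at 3.21 and Cd83 at 3.14. The values of Ahnak, B4galt5, Noct, Tlr2, Slfn2 and Fam107b were 3.12, 3.06, 3.04, 3.03, 2.93 and 2.43. More negative were Gimap8 at -2.95, Zfp532 at -2.64, Eps8l1 at -2.55, Zc3h6 at -2.55, Gprc5b at -2.49 and Ddx4 at -2.20. For Mc5r, Zbtb4, Gdf15, Mamdc2 and Fos the interaction was -2.17, -2.15, -2.14, -2.09 and -2.08. Fgd5 followed with -1.93, Dusp1 with -1.75, Zfp36 with -1.70 and Trim47 itself with -1.34, so that the fall of Trim47 RNA was deeper after the drug than the untreated difference of -0.31 (adjusted p = 0.0632).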

How the results depend on the processing

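Over the alternatives to the 5-FU comparison, the count of genes called higher was 3507 to 4413 against 4434, and of genes called lower 3417 to 4569 against 4499. Leaving out 1 library gave 3901 to 4170 and 4090 to 4359. Genes at least 2-fold higher numbered 443 to 597 (551 as reported) and those at least 2-fold lower 725 to 1060 (883). The interaction count stood at 6962 to 8991 (8957). The untreated count of 5392 fell to 3391 at an adjusted p under 0.01, a stricter threshold by construction. The labels give no meaning to replicate numbers, and the numbers were not taken as pairs. Same-numbered wild-type and Trim47-/- libraries of the 5-FU groups correlated at 0.061, 0.106 and 0.121 in their deviations from the group means. Other-numbered ones correlated at -0.103 to -0.013. Between the untreated genotypes the order was reversed, at -0.082, -0.071 and -0.084 for the same number and -0.027 to 0.101 for others. Other-numbered libraries of the untreated and 5-FU Trim47-/- groups reached 0.136. The numbers thus did not pair libraries in the same way across the groups. Deviations from a mean of 3 libraries cancel out, so these correlations are not independent. With the replicate block, 4384 genes were called higher and 4377 lower. Of the named genes that were called, with Adgre1, Ikbkg and Tnfaip3 left aside, Amd1, Rc3h1 and Cyld lost the call under some alternative and none of them reversed. Without the filter, Amd1 had an adjusted p of 0.0504 and Rc3h1 of 0.0510, and Rc3h1 of 0.0618 in the fit of 6 libraries. Cd163 passed in that fit (adjusted p = 0.0495), Pycard without the first Trim47-/- library (adjusted p = 0.0134) and Cdh5 without the first wild-type library (adjusted p = 0.0423), and the cause was not tested. The list medians that changed sign all lay near 0: homing receptors, TGF-beta, DNA methylation and Polycomb, RIG-I-like receptors, cholesterol synthesis, lysosome and the genes around Trim47. Spread also limits abundant genes: of 9902 genes averaging 10 CPM or more, 607 (6.13%) had libraries of a group over 1.5-fold apart. Among the 305 of these genes called at least 2-fold, 45 had such libraries, a larger share.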

Other observations

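Genes of the extracellular matrix and of its remodelling were higher more often than lower. Of 24 measured members 11 were higher, 7 lower and 6 did not pass, and 5 rose at least 2-fold. Spp1, osteopontin, which restrains stem cell numbers in the niche, went from 18.8 ± 1.21 to 32.5 ± 0.453 CPM (SD, n = 3 each), log2 0.79 (SE 0.0561, adjusted p = 3.97e-07). Plau, urokinase, stood at 8.34, 7.27 and 9.68 CPM in the wild-type libraries and 20.8, 20.1 and 20.1 CPM in those of Trim47-/-, log2 1.27 (SE 0.102, adjusted p = 1.16e-06), and the sheddase Adam8 was higher as well (1.62). The groups of Spp1, Plau and Adam8 did not overlap. The collagen IV genes Col4a1 and Col4a2, which share a promoter region, were lower (-0.94 and -0.98), as was the protease inhibitor Timp2 (-0.80).

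Genes that defend against oxidants were higher more often than lower. Of 30 members 15 were higher, 3 lower and 12 did not pass. Nfe2l2, the factor NRF2, stood at 85.8, 93.3 and 86.4 CPM in the wild-type libraries and 122, 119 and 120.1 CPM in those of Trim47-/-, log2 0.45 (SE 0.0388, adjusted p = 2.15e-06), and the mitochondrial superoxide dismutase Sod2 was higher (0.55). Catalase, Cat, was lower (-0.37). In cholesterol synthesis Hmgcs1 was higher (0.34). In the lysosome list the membrane protein Lamp1 was higher (0.31) and the glucosidase Gaa lower (-0.15).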
